A study of Enchytraeus crypticus with 30 samples.

Results

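Worms kept in clean soil for 7 days were compared with worms kept in the same soil for 3 days, with no nickel added in either group. The members are the 6 arrays labelled as controls of the nickel experiment, 3 at 7 days and 3 at 3 days, of 30 arrays in all. They were picked by their labels. The comparison itself was chosen with earlier results of these data known. The species is *Enchytraeus crypticus*, a small white segmented worm of the soil litter layer, which eats decaying organic matter and microbes and is used in reproduction tests of soil toxicity. Reproduction depends on the clitellum, a band of glandular skin that forms the egg cocoons.

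Every group was kept in natural LUFA 2.2 soil without food. Each array held RNA of a pool of 20 adult worms with a well-developed clitellum. The other 24 arrays came from worms exposed to nickel nitrate (NiNO3) or to nickel nanoparticles (Ni-NPs), each at 2 effect concentrations on reproduction called EC20 and EC50, for 7 or 3 days and with 3 arrays per condition. The study calls the replicates biological, and the vessel is the unit of replication. Time in the soil, time without food and the age of the worms change together between day 7 and day 3 and cannot be told apart. A pool of whole worms also does not separate a change of RNA level within cells from a change in the amount of a tissue or in the stage of the animals.

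Each array is a 1-colour Agilent chip with 43750 probes for worm sequences. A probe was compared only if the scanner software found its signal above 0 and significant on each of the 30 arrays, a condition that 24653 probes met. Levels are the log2 processed signal minus the median of the same array over these probes, so a level of 0 is that of the median probe and a difference of 1 is a doubling relative to it. The files do not pair the probes with genes. The probes are therefore given by the name of their target sequence, without a function, and the tissue could not be checked against marker genes.

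In unexposed worms fewer probes stood out from the background at day 7. On the day 7 arrays 22729, 24409 and 24074 probes (replicates 1 to 3) were well above background in the sense of the scanner software, against 25785, 24840 and 28259 on the day 3 arrays. The groups did not overlap, although the highest day 7 array lay only just below the lowest day 3 array. The means were 54.3% ± 2.03 of the probes at day 7 and 60.1% ± 4.03 at day 3 (SD, n = 3 each), and the exact two-sided permutation test gave p = 0.1, the smallest that 3 against 3 arrays allow. The probes positive and significant averaged 33879 ± 500.4 at day 7 and 36459 ± 1585 at day 3 (SD, n = 3 each, exact permutation p = 0.1). The median log2 signal before scaling was 5.87 ± 0.27 at day 7 and 5.82 ± 0.21 at day 3 (SD, n = 3 each, exact permutation p = 0.8). Taken over all 43750 probes it was lower at day 7, by a mean of -0.101, in place of higher by 0.048, and neither difference passed the test. Relative to the added spike-in transcripts the median was -7.40 ± 0.19 at day 7 and -7.44 ± 0.75 at day 3 on the log2 scale (SD, n = 3 each, exact permutation p = 0.9). The difference relative to the spike-ins was within the spread between arrays, which was wide at day 3. Day 3 replicate 3, with the most probes well above background, was the only unexposed array scanned on another day. Its median background was 41.5 units, against 27 to 31 on the other unexposed arrays. In NiNO3 EC20 the order was reversed, with 24872, 23748 and 24824 probes well above background at day 7 against 20157, 23278 and 23431 at day 3. In the other nickel treatments the days overlapped.

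The 6 arrays did not form 2 tight groups. Day 7 replicates 2 and 3 correlated at r = 0.979 over the 24653 probes, but day 7 replicate 1 correlated with them at only 0.966 and 0.964. Its closest array was day 3 replicate 1, at r = 0.982, and the median probe differed between these 2 arrays by 0.27 on the log2 scale, against 0.416 and 0.409 between day 7 replicate 1 and the other day 7 arrays. The 3 day 3 arrays correlated with each other at 0.965 to 0.978. These correlations are across probes, which are not independent, and are given as a description. With day 3 replicates 2 and 3 day 7 replicate 1 correlated at 0.972 and 0.968. Over all probes it was thus closer to every day 3 array than to either of the other day 7 arrays. The counts, shares and medians that lead the results below are therefore also given without day 7 replicate 1, with the calls made anew.

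Against this background, 340 of 24653 probes (1.38%) differed between day 7 and day 3 (limma, Benjamini-Hochberg adjusted over all probes, threshold 0.05). Of these, 88 were higher at day 7 (0.357% of all probes) and 252 were lower (1.02%). The median called rise was 1.11 on the log2 scale, or 2.16-fold, with quartiles of 0.90 and 1.63. The median called fall was -1.41, or a day 3 level 2.65 times that of day 7, with quartiles of -1.70 and -1.12. Changes of more than 2-fold made up 54 of the 88 rises and 207 of the 252 falls. Before adjustment 3799 probes (15.4%) had a p under 0.05, 1656 of them higher and 2143 lower at day 7.

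All 3 day 7 arrays lay on one side of all 3 day 3 arrays for 4756 of the 24653 probes (19.3%), 2206 above and 2550 below. Among the calls this held for 86 of the 88 rises and 251 of the 252 falls. Since the call rests on the same arrays, that count describes the calls and adds nothing to them. Among the 19749 probes that were well above background on all 6 unexposed arrays, 264 were called (1.34%), 70 higher and 194 lower, so the calls were not concentrated among dim probes.

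The split into rises and falls depends on how the arrays were scaled. With the study's MedianCD normalization, which estimates the scaling between conditions from probes that show no evidence of a difference between conditions in a statistical test, 1710 probes were higher at day 7 and 194 lower. With its SVCD normalization 940 were higher and 186 lower. These scalings moved the median difference of all probes to 0.249 and 0.204 on the log2 scale, against -0.039 with the median scaling. All 340 calls kept their direction under both, and 274 and 269 of them passed the threshold again. Each of these 2 scalings shifts all differences upward alike, by less than the smallest called fall of -0.607, so no call could reverse. Scaling to the spike-in transcripts left 5 calls, 1 higher and 4 lower, and the median scaling without the filter on dim probes left 47, 6 higher and 41 lower. Rises and falls are accordingly stated relative to the median probe of each array.

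**Figure D1:**
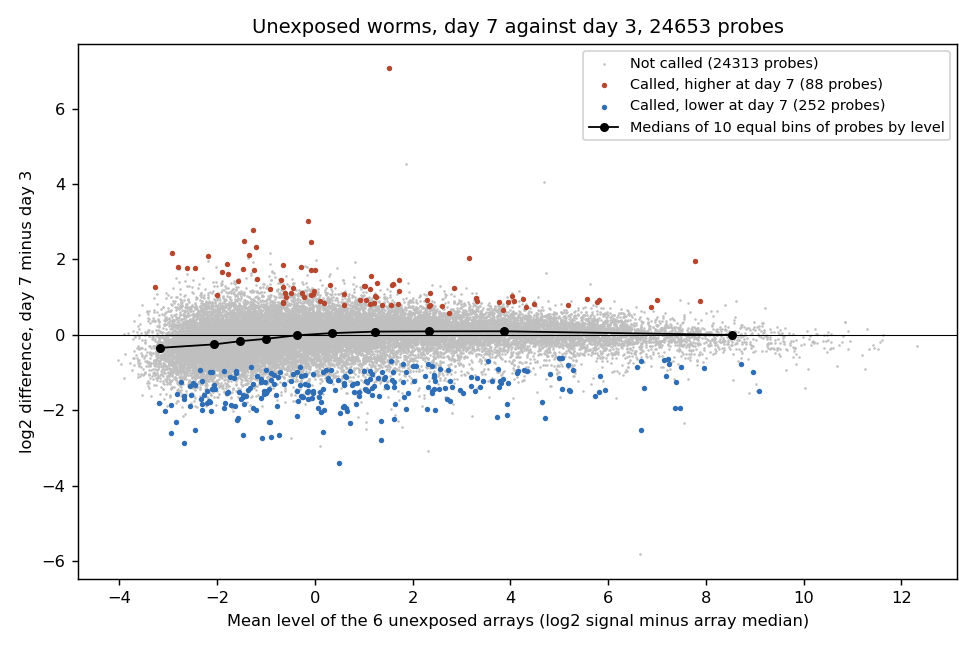
Log2 difference, day 7 minus day 3, of each of the 24653 probes in unexposed worms against its mean level on the 6 arrays. Red points are the 88 probes called higher, blue points the 252 called lower, grey points the rest, and the black line joins the medians of 10 equal bins of probes by level, which run from -0.346 in the dimmest bin to -0.0027 in the brightest.

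Calls occurred at all signal levels, as the plot of change against level shows. With the probes divided into 10 equal bins by level, 0.933% were called in the dimmest bin, 2.07% in the seventh, the highest share, and 1.5% in the brightest. With the median scaling, falls outnumbered rises in each of the 10 bins. Under MedianCD and SVCD, where rises outnumbered falls in total, the bins were not counted. The median difference over all probes of a bin was not level. It was -0.346 in the dimmest bin, crossed 0 between the fifth and the sixth, reached 0.0934 in the ninth and was -0.0027 in the brightest. Dim probes thus read lower at day 7 as a body, beside the smaller number of probes well above background at day 7, and the part of this shift in the falls among dim probes was not tested. Leaving out day 7 replicate 1, the median was -0.498 in the dimmest bin and 0.109 in the ninth, and falls outnumbered rises in 9 of the 10 bins. With quantile normalization, which gives all arrays the same distribution, 125 probes were higher and 263 lower, and 298 of the 340 calls were made again.

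The 2 kinds of target sequence on the chip differed in their share of falls. Sequences named as contigs, which are assembled from several reads, gave 161 falls and 31 rises among 12551 probes tested (1.28% and 0.247%). The others, whose names have the form of single sequencing reads, gave 91 falls and 57 rises among 12102 probes (0.752% and 0.471%). The median level of the contig probes was -0.488 and that of the others 0.365. The shares were 3.66% falls and 1.21% rises among contigs, and 1.92% falls and 2.12% rises among the others, without day 7 replicate 1. No test was made of this difference, since probes are not replicates.

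The largest fall was that of contig25506. Its levels were -0.85, -1.41 and -1.39 on the day 7 arrays, against 2.23, 2.22 and 2.13 on the day 3 arrays. The gap between the groups was far wider than the spread within either, and the 3 day 3 values lay within 0.1 of each other. The difference was -3.41 ± 0.30 on the log2 scale (SE), a 10.6 times higher level at day 3 (limma, adjusted p = 1.26e-06). In processed signal it read 26, 26 and 24 units at day 7, against 264, 229 and 287 units at day 3. Its size depends on the background correction at signals this dim. With normexp at an offset of 50 the difference was -1.79, and without day 7 replicate 1 it was -3.59. This probe passed the threshold under 23 of 24 alternative settings, all except a test of each probe by itself on the 6 arrays.

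The next largest fall that met the naming rule (well above background on all 6 arrays and no overlap between the days) was that of contig26160. Its levels were 1.68, -0.83 and -0.98 at day 7, against 2.82, 2.37 and 3.08 at day 3. Replicate 1 of day 7 stood apart here, more than 2 units above the other 2 day 7 arrays on the log2 scale but still below all day 3 arrays. The difference was -2.80 ± 0.53 (SE, limma, adjusted p = 0.0119), and it was -3.66 without that array. Without day 7 replicate 2 or 3, or without day 3 replicate 1, it no longer passed. With normexp it was -1.95, and the probe passed under 16 of the 24 settings.

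The largest rise by the same rule was that of contig02741, with levels of 0.769, 0.641 and 2.711 at day 7, against -1.569, -0.998 and -2.398 at day 3. All day 7 arrays lay above all day 3 arrays, but the day 7 values were spread over 2 units with replicate 3 the highest. The difference was 3.03 ± 0.73 on the log2 scale (SE), or 8.16-fold (limma, adjusted p = 0.0365). The call was lost when any one of the arrays was left out, except day 7 replicate 1, and with normexp, where the difference was 1.43. The probe passed under 11 of the 24 settings.

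The second was contig00698, with levels of 1.10, 0.11 and 2.25 at day 7, against -1.96, -1.03 and -0.90 at day 3. Replicate 3 of day 7 was again the highest and replicate 2 the lowest of its group. The difference was 2.45 ± 0.54 (SE), or 5.46-fold (limma, adjusted p = 0.0263). It no longer passed without day 7 replicate 3, day 3 replicate 1 or day 3 replicate 2, or with normexp, where the difference was 1.21. The probe passed under 13 of the 24 settings. The largest rises were thus more variable between arrays than the largest fall.

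**Figure D2:**
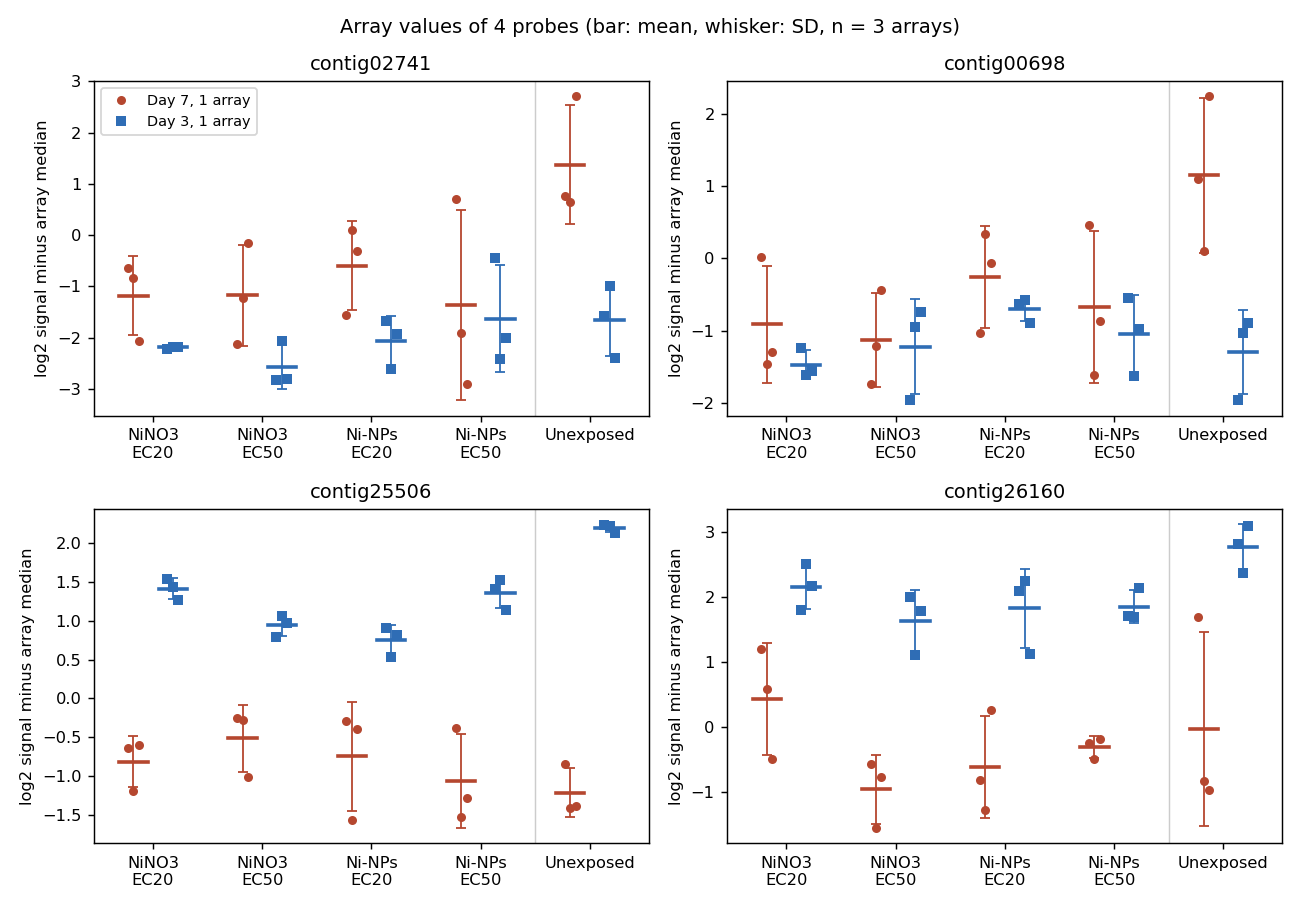
Levels (log2 signal minus the array's median) of the 2 largest rises and the 2 largest falls by the naming rule, in the 4 nickel treatments and in unexposed worms, with day 7 in red left of day 3 in blue. Points are arrays, bars means and whiskers the SD of 3 arrays. Contig25506 and contig26160 were lower at day 7 in all 5 pairs, whereas the mean day 7 levels of contig02741 and contig00698 in nickel stood below those in unexposed worms.

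The other 8 rises by the rule had differences of 1.57 to 2.04 and the other 8 falls of -2.59 to -2.16. Mean levels ran from -1.25 to 7.78 among the 10 rises and from -0.371 to 6.68 among the 10 falls. Single reads were 1 of the 10 rises and 3 of the 10 falls. They made up 12102 of the 24653 tested probes, 57 of all 88 called rises and 91 of all 252 called falls. The adjusted p lay between 0.00156 and 0.043 for the rises and between 1.26e-06 and 0.0355 for the falls.

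The call with the largest fitted rise fell outside the rule, since its probe was well above background on only 2 of the 3 day 3 arrays. It was picked out after its values were seen. Its levels were 4.827, 4.339 and 5.999 at day 7, against -1.860, -4.224 and 0.052 at day 3. The days were far apart, and the day 3 arrays differed among themselves by over 4 units. Replicate 2 of day 3, the lowest, was not well above background and has only a bound. The fitted difference was 7.07 ± 1.55 on the log2 scale (SE, limma, adjusted p = 0.0249), and the difference was 6.54 with that array set to its lowest signal well above background. In the 4 nickel treatments the same probe differed by 1.61 to 2.68 between the days, with adjusted p values of 0.303 to 0.61.

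Some probes were well above background at one day only. Of the 43750 probes, 506 (1.16%) were well above background on no day 7 array but on all 3 day 3 arrays, and 18 (0.0411%) were so on all 3 day 7 arrays but on no day 3 array. Without day 7 replicate 1, 797 were so on neither of the other day 7 arrays but on all 3 day 3 arrays, and 130 the other way round. This lopsided count goes with the smaller number of such probes on every unexposed day 7 array, a difference that was reversed in NiNO3 EC20. For these probes the fold is a bound, computed against the lowest signal well above background on each array. For the 503 with a bound over 1 in the first group, the median was at least 1.47-fold lower at day 7 and the largest at least 4.39-fold lower. For the 18 in the second group the largest was at least 4-fold higher at day 7. Only 288 of the 506 and 5 of the 18 were among the tested probes, of which 23 and 2 were called. Over all tested probes 1.38% were called. Both groups of probes were picked on the same unexposed arrays that the calls use, so a larger share of calls is built in. Their calls and adjusted p values are therefore descriptions and no separate evidence of a difference. Among the 23 called, the 3 largest falls were at least 3.06-fold, 2.88-fold and 2.8-fold, with adjusted p of 0.00601, 0.00516 and 0.00323 (limma). The 2 called rises were at least 2.61-fold and 2.33-fold, with adjusted p of 0.00787 and 0.0354 (limma).

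In most of the called probes day 7 replicate 1 was the day 7 array nearest to day 3. Over the 88 rises, the median level relative to the day 3 mean was 0.848, 1.25 and 1.21 on the day 7 arrays (replicates 1 to 3), against -0.0021, -0.108 and 0.113 on the day 3 arrays. Over the 252 falls it was -1.06, -1.49 and -1.60 on the day 7 arrays, against 0.0781, -0.12 and 0.0257 on the day 3 arrays. This was so in 57 of the 88 rises (64.8%) and in 173 of the 252 falls (68.7%). Over all tested probes the shares were 56.4% of those with a higher mean at day 7 and 54.6% of those with a lower one, so this array was nearer to day 3 across the whole chip.

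Without day 7 replicate 1 there were 1099 calls, 408 higher and 691 lower, and 317 of the 340 calls were among them. Without day 7 replicate 2 or 3 there were 54 and 50 calls. Without day 3 replicate 1, 2 or 3 there were 57, 177 and 165 calls. The number of calls therefore rests on each single array. The direction of all 340 was the same whichever array was left out. For the 86 rises and 251 falls without overlap between the days this was fixed in advance, since leaving out 1 array cannot reverse them. A fit to the 6 unexposed arrays alone made 1 call, contig25506, so that the number of calls also rests on the estimate of spread taken from all 30 arrays.

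**Figure D3:**
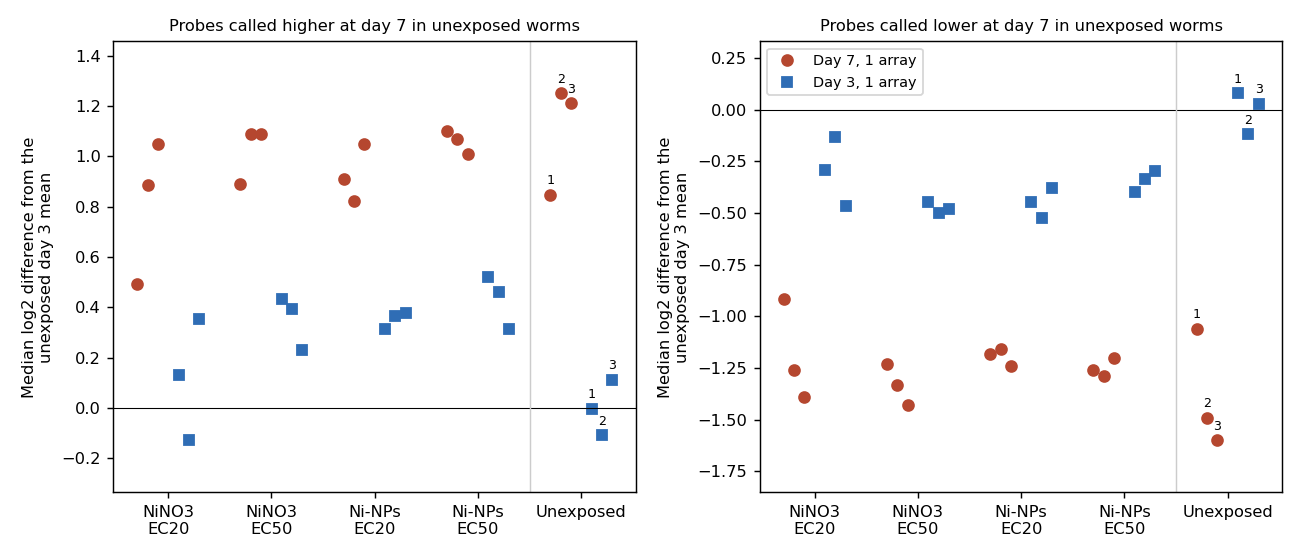
Median log2 difference from the unexposed day 3 mean over the 88 probes called higher (left) and the 252 called lower (right), for each of the 30 arrays, with day 7 in red left of day 3 in blue. Numbers mark the replicates of the unexposed arrays, on which the probes were chosen. Day 7 replicate 1 lies between the other day 7 arrays and day 3, at 0.848 and -1.06.

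The arrays lay on several slides and were scanned on 3 days. The unexposed day 7 arrays were on 3 slides and the day 3 arrays on 2, with no slide in common, so no value within a slide could be had. With slide as a fixed block, which the nickel arrays on the same slides make possible, 30 probes passed, 3 higher and 27 lower, and 22 of the 340 were among them. With slide as a random block 231 passed, 41 higher and 190 lower. On the first scan day, which held all 3 day 7 arrays but 2 of the 3 day 3 arrays, 573 probes passed, 235 higher and 338 lower. With scan day as a block 842 passed, 331 higher and 511 lower. All 340 calls kept their direction in each of these fits. Of the 4 named probes, contig25506 passed in all 4 of them. The other 3 did not pass with slide as a fixed block, at differences of -2.70 for contig26160, 2.28 for contig02741 and 2.05 for contig00698, and the 2 rises did not pass with slide as a random block or on the first scan day alone.

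The worms exposed to nickel were also sampled at both days, on other arrays. These arrays do not enter the difference between the unexposed groups, although they took part in the estimate of spread and in the choice of the tested probes. They answer whether the same probes differed between the days in other worms. The day effect itself called 135 probes (0.548%) in NiNO3 EC20, 257 (1.04%) in NiNO3 EC50, 22 (0.0892%) in Ni-NPs EC20 and 1900 (7.71%) in Ni-NPs EC50.

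The probes called in unexposed worms mostly differed the same way in nickel. In NiNO3 EC20, NiNO3 EC50, Ni-NPs EC20 and Ni-NPs EC50, 87, 83, 84 and 88 of the 88 rises were higher at day 7, and 243, 243, 246 and 242 of the 252 falls were lower. Together this is 97.1%, 95.9%, 97.1% and 97.1% of the 340 probes, whereas 75.2%, 71.1%, 63.2% and 71.2% of all probes had the sign of the unexposed difference. In all 4 treatments at once, 310 of the 340 (91.2%) kept the direction, 79 rises and 231 falls, against 39.9% of all probes. Without day 7 replicate 1 the 1099 calls had the same sign in 95.5%, 97.4%, 96.2% and 98.1% of cases in the 4 treatments, against 76.9%, 75.3%, 66% and 76.4% of all probes, and 993 (90.4%) had it in all 4. Probes share arrays and are not independent, so these shares are descriptions. The differences across all probes correlated between unexposed and exposed worms at r = 0.604, 0.57, 0.409 and 0.523 (24653 probes), and at 0.62, 0.666, 0.482 and 0.656 without day 7 replicate 1.

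The median differences were smaller in nickel than on the arrays that chose the probes. The median rise was 0.655, 0.587, 0.48 and 0.604 in the 4 treatments, against 1.11 in unexposed worms. The median fall was -0.891, -0.804, -0.761 and -0.963, against -1.41 in unexposed worms. Over the 1099 calls without day 7 replicate 1, the median rise was 0.588, 0.617, 0.449 and 0.634 in the 4 treatments, against 1.10 in unexposed worms. The median fall was -0.647, -0.826, -0.652 and -0.938, against -1.43 in unexposed worms. The median of all probes lay between -0.025 and 0.024 in the 4 treatments. All 3 day 7 arrays lay beyond all 3 day 3 arrays, in the direction of the unexposed worms, for 197, 226, 207 and 274 of the 340 probes (57.9%, 66.5%, 60.9% and 80.6%). Over all probes 12.6%, 31.6%, 12.1% and 43.3% were apart in either direction. Opposite to the unexposed worms, 2, 1, 1 and 1 of the 340 were apart.

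**Figure D4:**
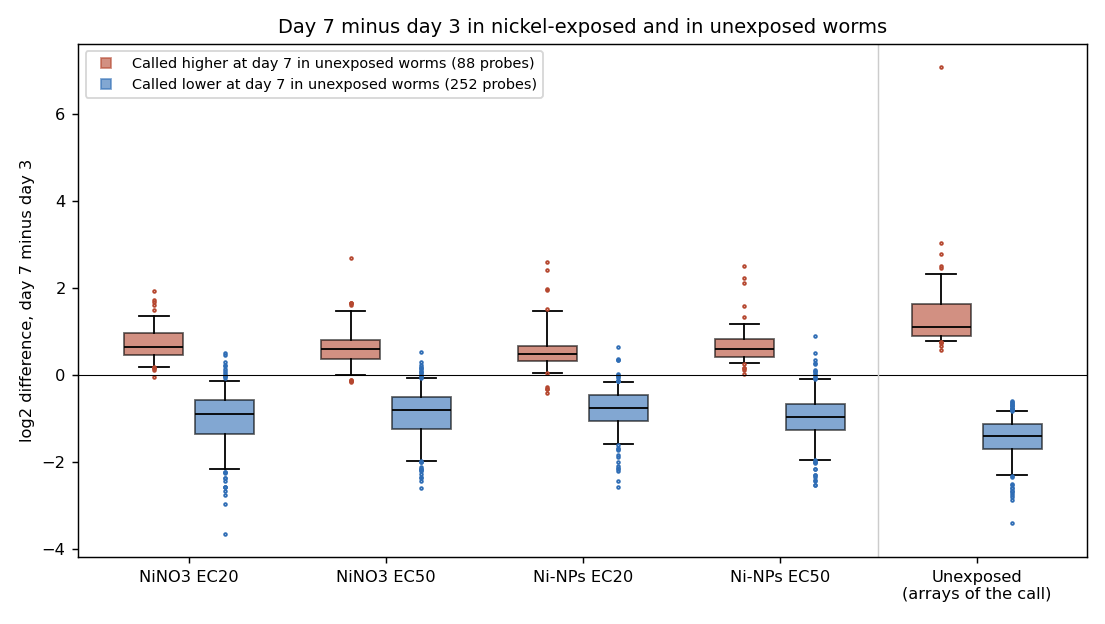
Log2 difference, day 7 minus day 3, of the 88 probes called higher (red) and the 252 called lower (blue) in unexposed worms, in the 4 nickel treatments and in the unexposed arrays that chose them. Boxes show quartiles and median, whiskers the 5th and 95th percentiles and dots the probes beyond. The median rise was 0.48 to 0.655 and the median fall -0.963 to -0.761 in nickel.

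Fewer of the probes passed the threshold in both. In NiNO3 EC20, 74 of the 340 were also called in the same direction, which is 21.8% of the unexposed calls and 54.8% of those of the treatment. In NiNO3 EC50 it was 73 (21.5% and 28.4%), in Ni-NPs EC20 14 (4.12% and 63.6%) and in Ni-NPs EC50 159 (46.8% and 8.37%). Over all 24653 probes the day effect was called, in either direction, in 0.548%, 1.04%, 0.0892% and 7.71% in the 4 treatments in this order. No probe was called in opposite directions in any of the 4 treatments. Of the 340 probes, 158 were called in no treatment, 92 in 1, 50 in 2, 32 in 3 and 8 in all 4. The same split over all probes was not counted.

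These 8 probes, 7 lower and 1 higher at day 7, passed the threshold in all 5 pairs of days. They include contig25506, which differed by -2.23, -1.46, -1.50 and -2.42 in NiNO3 EC20, NiNO3 EC50, Ni-NPs EC20 and Ni-NPs EC50, and by -3.41 in unexposed worms. The other 6 falls all lay between -2.57 and -1.11 in each nickel treatment and between -2.75 and -1.70 in unexposed worms. The probes that fell by -2.75 and -1.99 in unexposed worms were not well above background on all 6 unexposed arrays. The single rise was 1.10 to 1.65 in nickel and 1.04 in unexposed worms.

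Contig25506 also showed where the unexposed pair was wider. Its day 7 mean was -1.06 to -0.51 in the 4 nickel treatments, against -1.21 ± 0.32 in unexposed worms (SD, n = 3). Its day 3 mean was 0.75 to 1.42 in nickel, against 2.19 ± 0.06 in unexposed worms (SD, n = 3), and none of the 12 nickel arrays of day 3 reached the lowest unexposed one. Over all 252 falls, the array medians relative to the unexposed day 3 mean were -1.43 to -0.914 on the nickel day 7 arrays and -0.525 to -0.135 on the nickel day 3 arrays. Over the 88 rises they were 0.492 to 1.10 on the nickel day 7 arrays and -0.128 to 0.522 on the nickel day 3 arrays. The probes were chosen on the unexposed arrays, so a wider difference there is in part set by the choice.

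The 2 named rises behaved otherwise. Contig02741 differed by 1.01, 1.39, 1.47 and 0.26 between the days in NiNO3 EC20, NiNO3 EC50, Ni-NPs EC20 and Ni-NPs EC50, and contig00698 by 0.56, 0.09, 0.45 and 0.38. None of these passed the threshold, the adjusted p running from 0.33 to 0.952 (limma). Contig26160 differed by -1.73, -2.59, -2.43 and -2.15, and passed in NiNO3 EC50 (adjusted p = 0.0219) and Ni-NPs EC50 (adjusted p = 0.0316) but not in NiNO3 EC20 (adjusted p = 0.146) or Ni-NPs EC20 (adjusted p = 0.0797, limma). The day effects of these 4 probes did not pass a test of their difference from unexposed worms in any treatment (adjusted p = 0.266 to 1, limma).

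A direct test of whether the day effect differed between exposed and unexposed worms called 1 probe in NiNO3 EC20 (0.00406%) and 2 in NiNO3 EC50 (0.00811%). It called 0 in each of the Ni-NPs treatments (0% each). At an unadjusted p under 0.05 were 497, 712, 1064 and 1321 probes (2.02%, 2.89%, 4.32% and 5.36% of all probes). These 4 contrasts share the 6 unexposed arrays. None of the called probes was among the 340. Among the 340, 55, 86, 98 and 59 (16.2%, 25.3%, 28.8% and 17.4%) had an unadjusted p under 0.05 in the 4 contrasts. The 340 were, however, chosen on 6 of the arrays that these contrasts use. The median SE of this difference was 0.443 on the log2 scale. The test called 1 probe in each NiNO3 treatment and 0 in each of the Ni-NPs treatments when day 7 replicate 1 was left out.

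The probe called in both NiNO3 treatments had levels of 8.05 to 8.89 at day 7, against 5.68 to 5.96 at day 3, in NiNO3 EC20. In NiNO3 EC50 its levels were 8.10 to 8.60 at day 7, against 5.54 to 6.07 at day 3. In unexposed worms they were 6.61, 6.28 and 6.10 at day 7, against 6.71, 6.06 and 6.98 at day 3. The unexposed days overlapped, with a difference of -0.25 that did not pass (limma, adjusted p = 0.688). Its day effect exceeded that of unexposed worms by 2.81 ± 0.37 in NiNO3 EC20 and by 2.90 ± 0.37 in NiNO3 EC50 (SE, limma, adjusted p = 0.00222 and 0.00133). The second probe in NiNO3 EC50 had 3.06 to 4.55 at day 7, against -0.13 to 0.06 at day 3, in that treatment. In unexposed worms it had -1.40, -0.95 and -1.31 at day 7, against -0.70, -0.98 and -0.53 at day 3. Its day effect exceeded that of unexposed worms by 4.38 ± 0.71 (SE, limma, adjusted p = 0.0312).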

How the data were processed

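The values used are the processed signal intensity that the authors obtained with Agilent Feature Extraction 10.7.3.1, background-corrected and detrended, still linear and without scaling among arrays. The deposited series table holds the same intensity values rounded. Groups came from the sample labels. Log2 intensity minus the array's median over the 24653 analysed probes was fitted with limma 3.58.1 in R 4.3.3, with 1 mean per condition over all 30 arrays, and p-values were adjusted by Benjamini-Hochberg per contrast. The code was tested on simulated data. No analysed probe was saturated. The number of arrays, 3 per group, limits the precision. The compared groups and the rule for named probes were chosen with earlier results of these data known. The rule took the 10 largest rises and falls past the threshold, without overlap between the days and well above background on all 6 unexposed arrays, probes well above background on 1 day only, and the largest differences between exposed and unexposed worms. Since the files do not pair probes with genes, only 2 names per direction are printed. The alternatives were other normalizations (quantile, 75th percentile, MedianCD, SVCD, spike-in), background correction, filters, the t-test per probe named in the methods, blocks for slide, scan day and replicate number, and leaving out each unexposed array.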

Additional observations from a re-analysis of the deposited data

Results flagged for a closer look

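The day effect differed between exposed and unexposed worms, by a test of the difference itself, for 1 probe in NiNO3 EC20 and for 2 probes in NiNO3 EC50. With no filter or with spike-in scaling, neither NiNO3 treatment had such a call. With 3 arrays per group, no array was tested for standing apart within its group.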

How the results depend on the processing

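The 340 calls became 1904 with MedianCD and 1126 with SVCD normalization, 5 with spike-in scaling, 223 with the filter on the 6 unexposed arrays only and 47 with no filter. They became 0 with the methods' t-test after adjustment (2871 at an unadjusted p under 0.05), 1 in a fit to the 6 unexposed arrays, 30 with slide as a fixed block, 842 with scan day as a block, 573 on the arrays of the first scan day and 46 with normexp at offset 50, the last 2 settings chosen after seeing the data. Leaving out single arrays gave 50 to 1099 calls. The cause of these moves was not tested. The split of falls moved from 74.1% of the calls to 10.2% with MedianCD and 16.5% with SVCD. All calls still tested kept their direction under every alternative run. Scaling by 1 factor per array shifts every difference alike, here by less than the smallest called change of 0.575 on the log2 scale. The t-test and the fit to the 6 unexposed arrays use the same differences. These settings therefore could not reverse a call. The 3 calls of a difference between exposed and unexposed worms, summed over the treatments, became 6 with 75th percentile scaling, 0 with spike-in scaling, 5 with probes well above background, 1 with no filter, 6 with slide as a random block, 1 as a fixed block, 6 with scan day as a block and 5 with the replicate block. The 1 call with no filter was in Ni-NPs EC50, with 0 in each NiNO3 treatment. The replicate block gave 494 calls between the days. The same-numbered unexposed arrays deviated together only in part (correlations of 0.31, -0.0918 and 0.169), so the replicate number was not used for pairing. The share of calls with the same direction in all 4 nickel treatments, a result chosen after seeing the data, moved from 91.2% to 100% with spike-in scaling (5 calls), 94.3% with probes well above background, 85.1% with no filter, 86.7% with slide as a fixed block and 97.8% with normexp, and lay between 86% and 98.1% without single arrays. The median log2 signal differed by 0.048 over the analysed probes and by -0.101 over all probes. Normexp on the mean signal was not run, since the files used here hold the median signal. The small number of arrays and the dim probes limit all these counts.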
